A study of Mus musculus with 8 samples.

Results

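The members are 41 mouse genes of oxidative stress defence: the forkhead factors *Foxo1*, *Foxo3* and *Foxo4*, the NRF factors *Nfe2l1* and *Nfe2l2* with their inhibitor *Keap1*, and the enzymes and small proteins that remove reactive oxygen species or restore thiols. They were chosen by name, and every probe whose accession maps to one of them was kept, 57 probes of the 41174 on the array and 41 genes of 19092 named. The probes were read in the hearts of late fetal (E18.5) embryos of mice labelled C57BL/6 (C57BL/6J in the study's methods) on chow, 4 wild type (WT) and 4 SIRT1 KO, with 1 heart per array and no treatment in either group. By the study's methods the SIRT1 KO is a whole-body, germ-line deletion, so that by design all tissues carry it throughout development and not cardiomyocytes alone, and the embryos of both sexes came from heterozygous parents. Every level is a log2 signal, the log2 of the deposited intensity minus the 75th percentile of its array, so that 0 is the 75th percentile of the array's intensities. Levels of different probes cannot be compared, and in whole hearts fewer cells of a type and less RNA per cell cannot be told apart.

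SIRT1 is an NAD-dependent deacetylase, and FoxO proteins are among its known substrates. FoxO factors move to the nucleus when insulin signaling is low or stress is high and there drive genes such as *Sod2* and *Cat*. NRF2, the product of *Nfe2l2*, is held and marked for degradation by KEAP1 until oxidants or electrophiles modify KEAP1, after which it binds antioxidant response elements together with small MAF proteins. Its targets make glutathione, reduce thioredoxin and detoxify quinones and heme. Around birth the heart moves to higher oxygen and to fatty acid oxidation in mitochondria, which also produce superoxide and hydrogen peroxide.

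RefSeq promoter windows of the GRCm38.p6 assembly, from 250 bases before to 50 bases after each start, were given for 34 of the 41 genes. None was given for *Foxo4*, *Sod3*, *Prdx6*, *Gclc*, *Gsr*, *Gsta4* and *Hmox1*. The core of the antioxidant response element, TGACNNNGC, was searched on both strands and was found for 8 of the 34 genes, in 8 of their 50 windows (16%), against 12.4% of all 32851 windows. The FoxO core, GTAAACA, was found in 2 of the 50 windows (4%), against 3.65% of all windows. The lines show 60 bases of each upstream match on the strand of its gene, with the matched core in capitals, because these are the letters through which NRF2 and FoxO are known to bind DNA. The cores of *Gclm*, *Prdx1*, *Txnrd1*, *Sod1* and *G6pdx* lie on the opposite strand, so the capitals there read as the reverse complement. The core of *Srxn1*, the eighth gene, lies after its start and is not printed.
Nfe2l2, chr2:75704854-75704913, minus strand: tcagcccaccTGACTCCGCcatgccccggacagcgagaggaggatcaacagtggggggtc
Gclm, chr3:122245398-122245457, plus strand: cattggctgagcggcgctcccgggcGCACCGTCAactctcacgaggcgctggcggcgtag
Prdx1, chr4:116685441-116685500, plus strand: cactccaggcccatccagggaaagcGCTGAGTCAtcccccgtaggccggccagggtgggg
Mt2, chr8:94172514-94172573, plus strand: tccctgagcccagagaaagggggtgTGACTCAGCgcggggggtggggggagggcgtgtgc
Txnrd1, chr10:82859089-82859148, plus strand: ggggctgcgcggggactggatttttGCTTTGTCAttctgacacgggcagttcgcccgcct
Sod1, chr16:90220681-90220740, plus strand: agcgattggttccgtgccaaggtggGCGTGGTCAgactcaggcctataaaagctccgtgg
G6pdx, chrX:74428903-74428962, minus strand: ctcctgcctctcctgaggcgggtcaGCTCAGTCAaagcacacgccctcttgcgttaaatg
Glrx2 (FoxO core), chr1:143739285-143739344, plus strand: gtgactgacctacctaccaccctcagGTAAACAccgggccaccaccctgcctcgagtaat
Txnip (FoxO core), chr3:96557810-96557869, plus strand: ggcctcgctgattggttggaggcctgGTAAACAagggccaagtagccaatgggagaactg
A match describes these windows and is not a bound site.

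Each array had from 24497 to 26747 probes well above background and 0 saturated spots. The 75th percentile ran from 939 to 1033 intensity units in WT and from 777 to 906 in SIRT1 KO. The WT arrays all lie on 1 slide and the SIRT1 KO arrays on the other, scanned on another day, so genotype, slide and scan day cannot be told apart in any comparison made here. *Sirt1* itself was not lower on its brighter probe: the 4 values labelled SIRT1 KO, from 0.43 to 0.75, lay above the WT values, from -0.14 to 0.32 (log2 fold change 0.54, adjusted p = 0.0323 from limma). For the other probe the fitted difference was -0.11 (adjusted p = 0.589 from limma), and where the probes lie relative to the deletion is not analysed here. The genotypes are therefore taken from the labels, and SIRT1 KO below means the hearts labelled SIRT1 KO. All 12 cardiomyocyte markers were well above background on all 8 arrays.

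The antioxidant genes did not pass the test between the genotypes. Of the 41 genes, 38 had a probe well above background on at least 4 arrays, and with limma and Benjamini-Hochberg adjustment over all 25624 tested probes 0 of their 52 probes passed an adjusted p of 0.05, against 4.91% of all tested probes. By gene on the brightest probe, this was 0 of 38 against 4.62%. The smallest adjusted p was 0.114, for *Gpx4*. Among the 6798 genes above the median signal, where 32 of the 38 lie, 60 were called higher and 39 lower. In that set 445 genes were higher and 599 lower at an unadjusted p under 0.05, beside 0 and 2 of the 32 members. At an unadjusted p under 0.05 there were 6 member probes lower and 1 higher in SIRT1 KO, where 21.5% of all tested probes passed, 8.1% lower and 13.4% higher. The 6 became 21 with median scaling and 33 without scaling, where 76.1% and 84.9% of all genes had a lower mean. The count was 2 without WT replicate 1, WT replicate 3 or SIRT1 KO replicate 2. It was 3 without WT replicate 4 or SIRT1 KO replicate 1, and 8 without SIRT1 KO replicate 3. The share of all probes lower at that unadjusted p was not computed for these fits. The methods' analysis of variance, computed probe by probe, also called 0 of the 52 after adjustment, with 7 lower and 0 higher at an unadjusted p under 0.05. Leaving out SIRT1 KO replicate 3 brought 1 member probe past the threshold, that of *Gsta4*, as normexp did for a dim *Txnip* probe and median scaling for *Gpx4*. Without scaling 22 member probes passed, together with 6351 of all probes.

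On the brightest probe of each gene, 27 of the 38 had a lower mean in SIRT1 KO and 11 a higher one, and the median log2 fold change was -0.08, beside -0.01 over all 13596 genes tested, of which 51.6% were lower. Quantile normalization and cyclic loess left 25 lower, while median scaling gave 37 and no scaling 38. The last pair moved the median of all genes to -0.14 and -0.23 and that of the members to -0.21 and -0.30. Both shift every gene by about the same amount, so the gap of 0.07 between members and all genes was fixed in advance. Among the genes above the median signal, where 32 of the 38 lie, the median of all genes was -0.03 and 57.9% of them were lower, beside 21 of the 32 members (65.6%). Leaving out 1 array at a time moved the log2 fold change of 29 of the 38 members by over 1.5 times in at least 1 fit. With normexp *Glrx2* became -0.18, *Prdx6* -0.10, *Gpx7* -0.04, *Nfe2l2* 0.02, *Sod1* 0.03, *Foxo1* 0.05 and *Cat* 0.09. The 95% confidence interval lay within 1.5-fold in both directions for 37 of the 38 genes, the exception being *Gpx3*, as it did for 11142 of the 13596 genes and, above the median signal, for 31 of 32 members and 6450 of 6798 genes. It did so for 33 members with median scaling and 26 without scaling, and for 35 to 37 with 1 array left out. The median distance from the estimate to its bound was 0.21 log2 units. The 8 genes whose window holds the antioxidant response element core ranged from -0.14 (*Prdx1*) to 0.07 (*Nfe2l2*), 6 of them with a lower mean, and the 2 genes with a FoxO core stood at -0.10 (*Glrx2*) and 0.15 (*Txnip*).

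**Figure D1:**
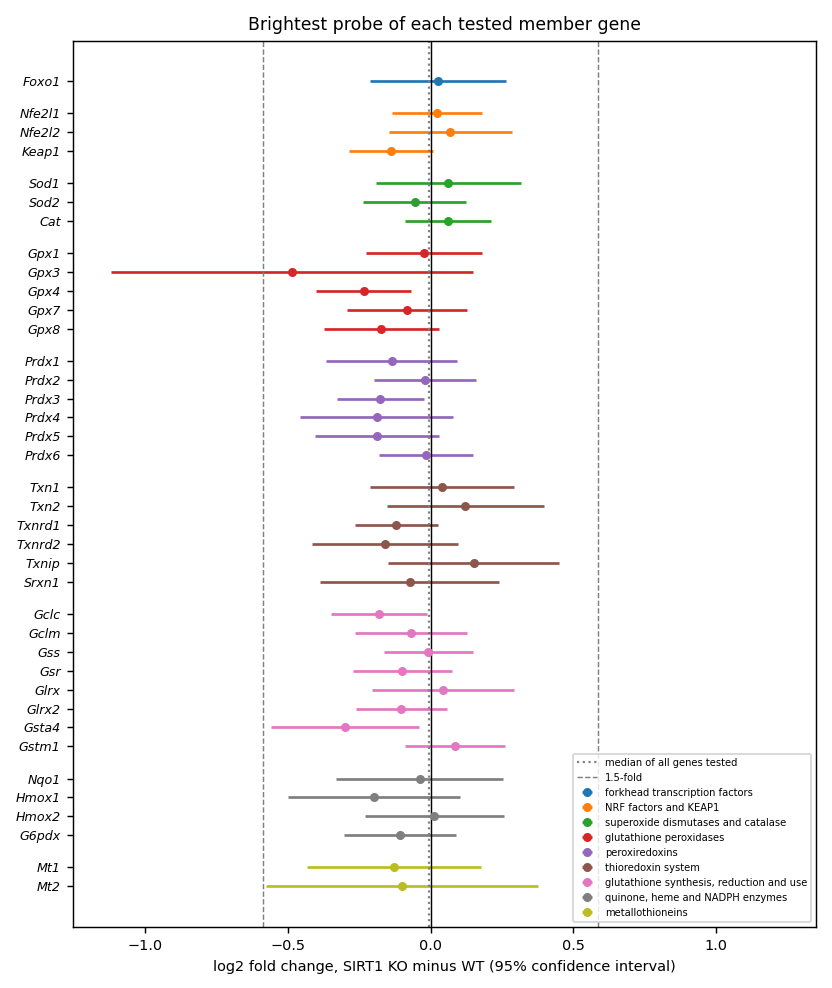
Log2 fold change of SIRT1 KO minus WT on the brightest tested probe of 38 genes, by role, with the 95% confidence interval from limma; dashed lines mark 1.5-fold and the dotted line the median of all genes tested. Every interval except that of *Gpx3* lies between the dashed lines, and 27 points lie below 0, a number that is 25 with cyclic loess or quantile normalization, 37 when arrays are scaled to their medians and 38 unscaled.

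**Figure D2:**
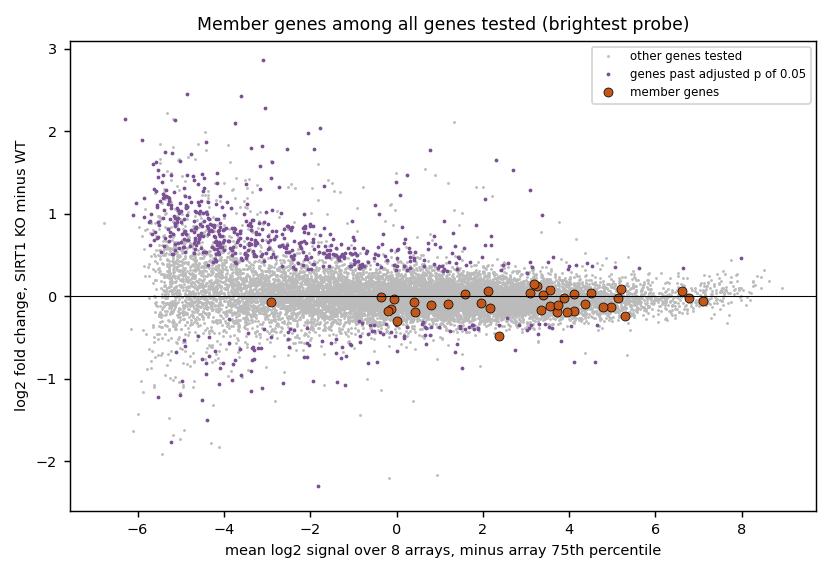
Log2 fold change against mean log2 signal for all 13596 genes tested on their brightest probe, in grey, with genes past an adjusted p of 0.05 in purple and the 38 members in orange. No member is among the purple points, most of which lie at low signal and above 0.

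The tested FoxO and NRF factors among the members had nearly equal means in both genotypes. *Foxo1*, the FoxO factor with the best known role in endothelium and metabolism, was at 1.36, 1.73, 1.60 and 1.58 in the WT hearts and at 1.70, 1.69, 1.39 and 1.60 in SIRT1 KO. The groups overlapped throughout, with a log2 fold change of 0.03 (95% confidence interval -0.21 to 0.26, limma's adjusted p = 0.911), and a dimmer *Foxo1* probe stood at 0.06. *Foxo3* was well above background on 1 WT and 1 SIRT1 KO array and *Foxo4* on none, so neither was tested. *Nfe2l2*, which encodes NRF2, lay between 3.32 and 3.64 in WT and between 3.47 and 3.75 in SIRT1 KO, with a log2 fold change of 0.07 (95% confidence interval -0.14 to 0.28). *Nfe2l1*, which encodes the related factor that controls proteasome genes, lay between 4.03 and 4.16 in WT and between 4.05 and 4.21 in SIRT1 KO (0.02, 95% confidence interval -0.14 to 0.18). With median scaling and without scaling *Foxo1*, *Nfe2l1* and *Nfe2l2* had a lower mean in SIRT1 KO, and with normexp so did *Nfe2l1*.

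*Keap1*, the adaptor that brings NRF2 to its ubiquitin ligase, was at 2.26, 2.24, 2.19 and 2.28 in the WT hearts and at 2.14, 2.03, 2.12 and 2.12 in SIRT1 KO. The groups did not overlap, with every SIRT1 KO heart lower (two-sided exact permutation p = 0.0286, which is the minimum for groups of 4). Any groups of 4 that do not overlap give this p. Here and below it restates the separation and is not a further test. The difference was small, a log2 fold change of -0.14 (95% confidence interval -0.28 to 0.01, limma's adjusted p = 0.255). Such a separation with lower SIRT1 KO values was found for 4 of the 38 genes, *Gpx4*, *Keap1*, *Prdx3* and *Txnrd1*, and for 5.6% of all genes tested; with higher values it was found for 0 of the 38 and 8.41% of all genes.

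The superoxide dismutases and catalase carry out the first steps, superoxide to hydrogen peroxide and hydrogen peroxide to water. *Sod2*, the mitochondrial enzyme and a FoxO target, was at 7.23, 7.15, 7.07 and 7.04 in WT and at 7.13, 7.01, 7.16 and 6.97 in SIRT1 KO, with a log2 fold change of -0.06 (95% confidence interval -0.23 to 0.12, limma's adjusted p = 0.72). *Sod1*, the cytosolic enzyme, had 0.06 (95% confidence interval -0.19 to 0.31), which became 0.0035 when WT replicate 3 was left out and 0.15 when SIRT1 KO replicate 4 was. *Cat*, catalase of peroxisomes, was at 2.08, 2.11, 2.06 and 2.10 in WT and at 2.16, 2.15, 2.06 and 2.23 in SIRT1 KO. Its WT values lay close together and 3 of the 4 SIRT1 KO values above all of them, with a log2 fold change of 0.06 (95% confidence interval -0.09 to 0.21, limma's adjusted p = 0.633). *Sod1* and *Cat* had a lower mean in SIRT1 KO with median scaling and without scaling. *Sod3*, the extracellular dismutase, stayed at background on all 8 arrays and was not tested.

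All 5 glutathione peroxidases among the members had a lower mean in SIRT1 KO, with a median log2 fold change of -0.17. Of these 5, 0 passed the threshold, and 4 were lower under cyclic loess, where *Gpx1* stood at 0.0035. *Gpx2*, a glutathione peroxidase outside the members, went the other way. Its log2 fold change was 0.31 (95% confidence interval 0.08 to 0.54, limma's adjusted p = 0.12), with every SIRT1 KO heart above every WT heart. *Gpx4*, which reduces lipid hydroperoxides in membranes and so restrains ferroptosis, was at 5.39, 5.44, 5.40 and 5.43 in WT and at 5.26, 5.04, 5.26 and 5.16 in SIRT1 KO. The WT hearts lay within a narrow range, and each SIRT1 KO heart was below it. The log2 fold change was -0.23 (95% confidence interval -0.40 to -0.07, standard error 0.07, limma's adjusted p = 0.114, two-sided exact permutation p = 0.0286), and with median scaling it was -0.37 and passed the threshold (adjusted p = 0.0425 from limma). *Gpx3*, the secreted enzyme of plasma, had the lowest log2 fold change of the members and the widest spread on a brightest probe, with 2.41, 3.07, 2.44 and 2.55 in WT and 1.68, 2.99, 2.04 and 1.82 in SIRT1 KO. Replicate 2 was the highest heart of both groups, and the other 3 SIRT1 KO hearts lay below every WT heart (log2 fold change -0.48, 95% confidence interval -1.12 to 0.15, standard error 0.28, limma's adjusted p = 0.353). Without SIRT1 KO replicate 2 the *Gpx3* value was -0.77 (limma's adjusted p = 0.0605). *Gpx8* and *Gpx7*, peroxidases of the endoplasmic reticulum, had -0.17 and -0.08, and *Gpx1*, the cytosolic enzyme, had -0.02.

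**Figure D3:**
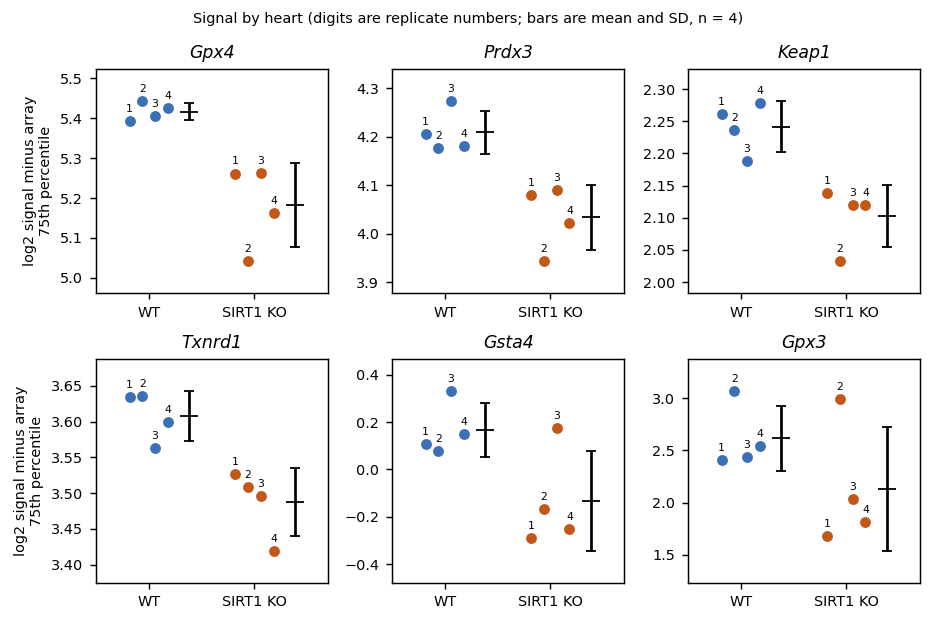
Log2 signal minus the 75th percentile of the array in each heart for 6 members, WT in blue and SIRT1 KO in orange, with digits for the replicate numbers and bars for the mean and SD of 4 hearts; each panel has its own scale. The 4 hearts of SIRT1 KO lie below those of WT for *Gpx4*, *Prdx3*, *Keap1* and *Txnrd1* and overlap them for *Gsta4* and *Gpx3*.

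The 6 peroxiredoxins, thiol peroxidases that take electrons from thioredoxin or glutathione, also had lower means in SIRT1 KO on their brightest probes, with a median log2 fold change of -0.16 and 0 of 6 past the threshold; 4 were lower under quantile normalization, where *Prdx2* and *Prdx6* stood at 0.0030 and 0.0089, and 5 under cyclic loess, where *Prdx6* stood at 0.016. *Prdx3*, the mitochondrial peroxiredoxin, was at 4.21, 4.18, 4.27 and 4.18 in WT and at 4.08, 3.94, 4.09 and 4.02 in SIRT1 KO. The groups did not overlap, and the log2 fold change was -0.18 (95% confidence interval -0.33 to -0.02, standard error 0.07, limma's adjusted p = 0.181, two-sided exact permutation p = 0.0286). *Prdx4*, the form of the endoplasmic reticulum, and *Prdx5*, found in mitochondria and peroxisomes, both had -0.19, and *Prdx1* had -0.14. For these 3 genes SIRT1 KO replicate 3 was the highest of all 8 hearts, at 4.19, 3.87 and 5.15, while the other 3 SIRT1 KO hearts lay below every WT heart. Without that heart *Prdx4* stood at -0.30 (limma's adjusted p = 0.0547) and *Prdx1* at -0.22, and without SIRT1 KO replicate 4 *Prdx4* stood at -0.12. *Prdx2*, abundant in red cells, was at 6.77, 6.73, 6.79 and 6.81 in WT and at 6.77, 6.68, 6.92 and 6.66 in SIRT1 KO, with a log2 fold change of -0.02, beside -0.12 and -0.07 on its dimmer probes. *Prdx6*, which uses glutathione, had -0.02.

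Thioredoxin and its reductases return oxidised peroxiredoxins and ribonucleotide reductase to the reduced state. *Txnrd1*, the cytosolic reductase and a known NRF2 target whose window is printed above, was at 3.63, 3.64, 3.56 and 3.60 in WT and at 3.53, 3.51, 3.50 and 3.42 in SIRT1 KO. No SIRT1 KO heart reached the lowest WT heart, and the log2 fold change was -0.12 (95% confidence interval -0.26 to 0.02, limma's adjusted p = 0.317, two-sided exact permutation p = 0.0286). The mitochondrial reductase *Txnrd2* had -0.16, and *Srxn1*, sulfiredoxin, which repairs overoxidised peroxiredoxins, had -0.07. *Txn1*, cytosolic thioredoxin, was at 4.50, 4.57, 4.46 and 4.39 in WT and at 4.74, 4.54, 4.58 and 4.23 in SIRT1 KO, so that the SIRT1 KO hearts held both the highest and the lowest value (0.04, 95% confidence interval -0.21 to 0.29). *Txn2*, its mitochondrial counterpart, had 0.12 (95% confidence interval -0.15 to 0.40), which became 0.011 when WT replicate 4 was left out and 0.20 when WT replicate 1 was. *Txnip*, which binds and blocks thioredoxin and responds to glucose, was at 3.003, 3.008, 3.15 and 3.31 in WT and at 3.14, 3.06, 3.26 and 3.62 in SIRT1 KO. The log2 fold change of 0.15 (95% confidence interval -0.15 to 0.45) became 0.034 without SIRT1 KO replicate 4. A dimmer *Txnip* probe had 0.28 (unadjusted p = 0.0393, adjusted p = 0.206 from limma), the single member probe higher at an unadjusted p under 0.05. That probe passed with normexp on the median signal (0.33, adjusted p = 0.0382 from limma). Under that correction *Txn1* had a lower mean in SIRT1 KO, as *Txn1* and *Txn2* did with median scaling and all 3 higher genes of this system without scaling.

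Among the genes that make and use glutathione, 6 of 8 had a lower mean in SIRT1 KO, with a median of -0.08. With normexp this was 4 of 8 and -0.02, with median scaling 8 of 8 and -0.22, and without scaling 8 of 8 and -0.30; without WT replicate 2 the median was -0.05. *Gclc*, the catalytic subunit of the rate-limiting enzyme of glutathione synthesis, was at -0.13, -0.05, -0.22 and -0.06 in WT and at -0.25, -0.38, -0.34 and -0.21 in SIRT1 KO. Only replicate 4 of SIRT1 KO reached into the WT range, and the log2 fold change was -0.18 (95% confidence interval -0.35 to -0.01, limma's adjusted p = 0.206). It was -0.09 with normexp (unadjusted p = 0.283), -0.31 with median scaling and -0.40 without scaling, where it passed (adjusted p = 0.0233 from limma). Its modifier subunit *Gclm* had -0.07 and glutathione synthetase, *Gss*, had -0.01, values that with normexp were 0.06 and 0.10. *Gsta4*, the transferase that conjugates the lipid peroxidation product hydroxynonenal, was at 0.11, 0.08, 0.33 and 0.15 in WT and at -0.29, -0.17, 0.17 and -0.25 in SIRT1 KO. SIRT1 KO replicate 3 stood among the WT hearts and the other 3 below all of them, with a log2 fold change of -0.30 (95% confidence interval -0.56 to -0.04, limma's adjusted p = 0.177) that became -0.40 without that heart (adjusted p = 0.0357 from limma). *Gsr*, glutathione reductase, had -0.10, and *Glrx2*, the mitochondrial glutaredoxin, also had -0.10. *Glrx*, the cytosolic one, had 0.04 and a lower mean in SIRT1 KO with median scaling, without scaling and with array weights.

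The probes of a gene did not always lie on the same side of 0. Of the 10 members with several tested probes, 7 had all of them on 1 side and 3, *Gstm1*, *Mt1* and *Prdx6*, did not. *Gstm1*, a transferase from a cluster of closely related genes whose probes may be shared, was at 5.27, 5.08, 5.09 and 5.23 in WT and at 5.28, 5.28, 5.31 and 5.15 in SIRT1 KO on its brightest probe (0.09, 95% confidence interval -0.09 to 0.26, limma's adjusted p = 0.552; -0.05 with median scaling and -0.13 without scaling). On its dimmer probe it was at 0.45, 0.17, 0.32 and 0.37 in WT and at 0.13, 0.00, 0.14 and 0.18 in SIRT1 KO (-0.21, 95% confidence interval -0.40 to -0.03, limma's adjusted p = 0.176). The dimmest *Prdx6* probe, well above background on 1 WT and 3 SIRT1 KO arrays, had 0.22, while the 1360 genes of lowest signal had a median of 0.22. All 3 *Gsr* probes lay below 0, at -0.10, -0.22 and -0.14.

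*Hmox1*, the inducible heme oxygenase and a sensitive NRF2 target, was at 0.83, 0.52, 0.34 and 0.46 in WT and at 0.56, 0.18, 0.46 and 0.16 in SIRT1 KO. The highest heart was a WT heart and the lowest a SIRT1 KO heart, but the groups overlapped, with a log2 fold change of -0.20 (95% confidence interval -0.50 to 0.10, limma's adjusted p = 0.424). It was -0.099 without WT replicate 1. *Nqo1*, the quinone reductase often read as a measure of NRF2 activity, was at -0.13, 0.13, 0.02 and -0.17 in WT and at -0.16, -0.14, 0.27 and -0.29 in SIRT1 KO (-0.04, 95% confidence interval -0.33 to 0.25, limma's adjusted p = 0.892). Both the highest and the lowest *Nqo1* value belonged to SIRT1 KO, and the log2 fold change was -0.17 with normexp or median scaling and -0.26 without scaling, with 0 of these past the threshold. *Hmox2*, the constitutive heme oxygenase, had 0.01 (95% confidence interval -0.23 to 0.26; negative with median scaling, without scaling and with array weights), and *G6pdx*, which supplies NADPH from the pentose phosphate pathway, had -0.11.

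The metallothioneins *Mt1* and *Mt2* bind zinc and copper and are induced by metals, glucocorticoids and oxidants. *Mt1* was at 5.12, 4.70, 4.77 and 4.82 in WT and at 4.95, 4.57, 4.88 and 4.49 in SIRT1 KO, with a log2 fold change of -0.13 (95% confidence interval -0.43 to 0.18, limma's adjusted p = 0.622), which became -0.036 when WT replicate 1 was left out and -0.20 when SIRT1 KO replicate 1 was. *Mt2* was at 4.87, 4.28, 4.48 and 3.99 in WT and at 4.65, 4.04, 4.53 and 4.01 in SIRT1 KO (-0.10, 95% confidence interval -0.58 to 0.38, limma's adjusted p = 0.822). Replicate 1 was the highest heart of both groups for both genes, and the spread among hearts of 1 group was wider than the difference between the groups. The dimmer *Mt1* probe stood at 0.31 (95% confidence interval -0.38 to 1.00).

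Hearts of SIRT1 KO differed among themselves across many members. Within that group, replicate 3 was the highest heart for 22 of the 38 genes and replicate 4 the lowest for 19, while in WT the highest heart was replicate 1 for 15 genes, replicate 2 for 11, replicate 4 for 8 and replicate 3 for 4. SIRT1 KO replicate 3 also had the lowest 75th percentile of all arrays, 777, and the fewest probes well above background, 24497; their part in the result was not tested. Without this heart the median of the members was -0.12 with 29 of 38 lower, and without SIRT1 KO replicate 4 it was -0.03 with 24 lower.

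**Figure D4:**
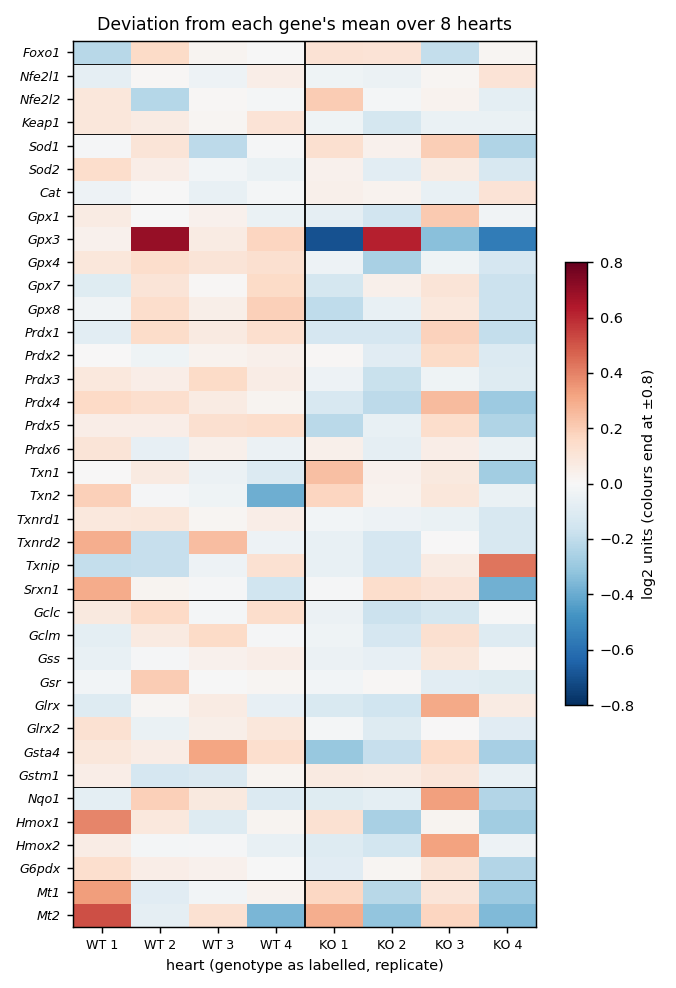
Deviation of each heart from the gene's mean over 8 hearts, in log2 units, for the brightest probe of 38 members ordered by role, WT left and SIRT1 KO right of the line; the colours end at ±0.8. The column of SIRT1 KO replicate 3 holds the highest SIRT1 KO value for 22 genes and that of replicate 4 the lowest for 19, and *Gpx3* has the strongest colours, with replicate 2 high in both groups.

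Around the members, 125 further genes of the FoxO, NRF2, glutathione and thiol pathways were listed from general knowledge, and 107 were tested. In SIRT1 KO 50 had a higher and 57 a lower mean, for a median log2 fold change of -0.01, and with limma 1 was higher and 2 were lower past an adjusted p of 0.05, against 3.71% and 0.905% of all genes. *Sesn2*, a sestrin that restrains growth signaling and helps to degrade KEAP1, was at -0.96, -1.09, -1.06 and -0.89 in WT and at -0.52, -0.64, -0.69 and -0.58 in SIRT1 KO. All 4 SIRT1 KO hearts lay above the WT hearts, and *Sesn2* rose by 0.39 (standard error 0.08, adjusted p = 0.0229 from limma). *Mt3*, the metallothionein best known from brain, was at -0.38, -0.39, -0.57 and -0.38 in WT and at -0.69, -0.80, -0.85 and -0.78 in SIRT1 KO. Again the groups did not overlap, and *Mt3* fell by 0.35 (standard error 0.07, adjusted p = 0.032 from limma). *Cdkn1a*, a cyclin-dependent kinase inhibitor induced by p53 and FoxO factors, was at 0.71, 0.68, 0.72 and 0.90 in WT and at 0.46, 0.43, 0.41 and 0.37 in SIRT1 KO and fell by 0.34 (standard error 0.07, adjusted p = 0.0372 from limma). With each heart left out in turn, *Sesn2* passed in 3 of the 8 fits, *Mt3* in 2 and *Cdkn1a* in 0. *Sesn2* then lay between 0.36 and 0.43 and passed when WT replicate 4, SIRT1 KO replicate 3 or SIRT1 KO replicate 4 was left out, and *Mt3* passed when replicate 3 of either group was left out. Median scaling left *Sesn2* at 0.26 (adjusted p = 0.0812 from limma). Without scaling *Sesn2* stood at 0.17 (adjusted p = 0.207 from limma), *Mt3* at -0.57 and *Cdkn1a* at -0.56, where the median of all genes was -0.23, and without a filter on dim probes none of the 3 passed, with adjusted p from 0.0526 to 0.0794 from limma.

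By list, 13 other regulators of FoxO, NRF2 and BACH factors had 0 calls and a median of -0.03, 21 other NRF2-type targets 0 calls and -0.04, and 26 other glutathione enzymes and transferases 0 calls and 0.00. At an unadjusted p under 0.05 these lists held 1, 6 and 6 genes, against 20.4% of all genes. The 19 other thiol and methionine repair genes, which hold *Sesn2* and *Mt3*, had a median of -0.01, and the 21 FoxO target genes, which hold *Cdkn1a*, had 0.03. Of the 7 tested NADPH oxidase genes, whose complexes make superoxide, 5 had a higher mean in SIRT1 KO, with a median of 0.12 and 0 calls, 3 of them higher at an unadjusted p under 0.05, against 11.9% of all genes.

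Markers of other cell types were read beside these results. The 9 tested hepatocyte markers were all higher in SIRT1 KO, with a median log2 fold change of 1.33 and 0 past the threshold. Their summed level, in units of the 75th percentile, ranged from 11.9 to 29.5 in WT and from 14.1 to 129 in SIRT1 KO. Of the 12 on the array, 8 were well above background on all 8 arrays and 1, *Hnf4a*, on none. *Alb* was at 4.33, 1.54, 0.85 and 3.32 in SIRT1 KO and between 0.59 and 2.11 in WT. Of 8 tested erythroid markers 5 were higher and 2, *Hbb-y* and *Gata1*, passed the threshold. *Gata1* was well above background on 1 WT and 4 SIRT1 KO arrays and so was tested only through its SIRT1 KO values. The summed erythroid level ranged from 509 to 557 in WT and from 440 to 538 in SIRT1 KO. Of 12 cardiomyocyte markers 10 had a higher mean, with a median of 0.12, and of 10 endothelial markers 1 had a higher mean, with a median of -0.10, and 0 of either list passed. The cardiomyocyte sum ranged from 1789 to 1961 in WT and from 1889 to 2237 in SIRT1 KO, and the endothelial sum from 68.1 to 80.6 in WT and from 62.0 to 76.3 in SIRT1 KO. Of 11 fibroblast and epicardial markers 4 had a higher mean, with a median of -0.03. The macrophage sum ranged from 4.64 to 7.002 in WT and from 4.45 to 7.15 in SIRT1 KO. Liver and red cells also express peroxiredoxins, catalase and metallothioneins, and the part of these markers in the values of the members was not tested.

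**Figure D5:**
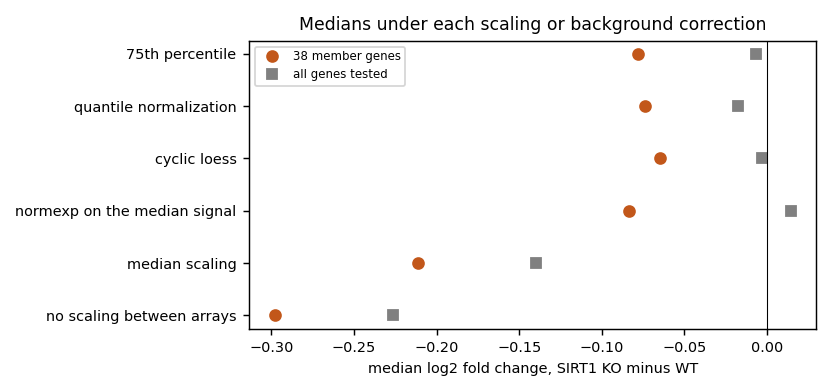
Median log2 fold change of SIRT1 KO minus WT over the 38 members (circles) and over all genes tested (squares) under each scaling or background correction. The member median lies below the median of all genes in every row, by 0.06 to 0.10, and both move down with median scaling and without scaling.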

How the data were processed

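Total RNA (500 ng) of 8 hearts was labelled with Cy3 and hybridised to one-color Agilent whole mouse genome arrays. The authors deposited each spot's processed signal, an intensity after background subtraction and error modelling by Agilent Feature Extraction (12.0.0.7 per the file headers) without scaling between arrays; the deposited series table holds the same values. The log2 intensity minus the array's 75th percentile over non-control spots was averaged over the unflagged spots of a probe. Accessions were matched to RefSeq genes of GRCm38.p6, which named 28215 of 41174 probes (68.5%). Probes well above background on at least 4 arrays were tested with limma 3.58.1 in R 4.3.3 (lmFit, eBayes; Benjamini-Hochberg, threshold 0.05) without covariates, since each slide holds 1 genotype; the study used analysis of variance. Probes of a gene were kept apart, and the brightest stands for the gene. The fit was tested on simulated data. Tables and plots were made with Python 3.11.15, numpy 2.4.6, pandas 2.3.3 and matplotlib 3.10.9.

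The members, lists and alternatives were chosen with earlier results of these data known. Full values were to be given, per role, for the gene with the smallest p and that with the highest signal, for genes whose groups do not overlap, whose probes disagree or which are at background, and for listed pathway genes past the threshold; *Nfe2l2*, *Sod1*, *Gpx3*, *Txnip*, *Gclc*, *Mt2*, *Nqo1* and the peroxiredoxins beyond this rule were added after their values were seen, and the other members are given with their fold change alone. GEO's labels do not say whether hearts came from separate litters, so p-values measure the spread between these hearts. With 4 arrays per group the number of arrays limits the precision.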

Additional observations from a re-analysis of the deposited data

Results flagged for a closer look

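*Prdx1*, a cytosolic peroxiredoxin, had 1 SIRT1 KO heart far from the others of its group: replicate 3 was at 5.15, while the other 3 lay between 4.78 and 4.83, a gap of 0.849 of the group's range. Of 76 groups of 4 hearts examined this was the single one, where chance gives about 1 in 20. Without this heart the log2 fold change of *Prdx1* was -0.22, against -0.14 with it.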

How the results depend on the processing

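Normexp and cyclic loess were chosen after the data were seen; normexp used the median spot signal because the files hold no mean signal, so the planned form was not run. A slide block was not run, since each slide holds 1 genotype. The number of member probes past the threshold moved from 0 to 1 with normexp (*Txnip*), to 1 with median scaling (*Gpx4*) and to 22 without scaling, and lay between 0 and 1 with each array left out. The number over all probes moved from 1257 to 2642 with normexp, 1909 with median scaling, 6351 without scaling, 550 with the analysis of variance and 2138 with array weights, and lay between 660 and 1827 with each array left out. The share of these that were higher was 81.2%, against 71.5% with cyclic loess, 63.9% with quantile normalization, 10.1% without scaling and 35.6% with median scaling. The median of the members was -0.21 with median scaling and -0.30 without scaling and ranged from -0.12 to -0.03 with each array left out. Pathway genes called higher numbered 1, against 4 with normexp, 0 with median scaling, without scaling and without a filter, 2 with probes well above background on all 8 arrays, 3 with array weights and 0 to 2 with each array left out; those called lower numbered 2, against 7 with normexp and with median scaling, 28 without scaling, 0 without a filter, 5 with array weights and 0 to 4 with each array left out.

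Log2 fold changes that turned direction were, with median scaling, *Cat* -0.072, *Foxo1* -0.11, *Glrx* -0.090, *Gstm1* -0.047, *Hmox2* -0.12, *Nfe2l1* -0.11, *Nfe2l2* -0.063, *Sod1* -0.070, *Txn1* -0.093 and *Txn2* -0.012. Without scaling they were *Cat* -0.16, *Foxo1* -0.19, *Glrx* -0.18, *Gstm1* -0.13, *Hmox2* -0.21, *Nfe2l1* -0.20, *Nfe2l2* -0.15, *Sod1* -0.16, *Txn1* -0.18, *Txn2* -0.10 and *Txnip* -0.069. With normexp they were *Gclm* 0.065, *Gss* 0.10, *Nfe2l1* -0.034 and *Txn1* -0.021, with array weights *Glrx* -0.042 and *Hmox2* -0.041, with cyclic loess *Gpx1* 0.0035 and *Prdx6* 0.016, and with quantile normalization *Prdx2* 0.0030 and *Prdx6* 0.0089. With each array left out 12 of the 38 genes changed sign, *Foxo1* from -0.044 to 0.095, *Glrx* from -0.052 to 0.10, *Gpx1* from -0.10 to 0.027, *Gss* from -0.039 to 0.014, *Hmox2* from -0.091 to 0.064, *Mt2* from -0.24 to 0.055, *Nfe2l1* from -0.011 to 0.045, *Nqo1* from -0.15 to 0.033, *Prdx2* from -0.074 to 0.014, *Prdx6* from -0.040 to 0.017, *Srxn1* from -0.14 to 0.042 and *Txn1* from -0.034 to 0.14, and the other 26 did not. Both scalings without the 75th percentile shift all genes, and the cause of the remaining changes was not tested.

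With the replicate number as a block, 1187 probes passed, 0 of them members, and *Cdkn1a* no longer passed (adjusted p = 0.08 from limma). With this block limma's adjusted p was 0.0946 for *Gpx3*, 0.0924 for *Gsta4* and 0.153 for *Gpx4*. Without it the values were 0.353, 0.177 and 0.114. Same-numbered hearts had correlations of their deviations from the group means of 0.20, 0.21, 0.06 and 0.14, so 3 of the 4 were above 0.1. The series' design text speaks of 4 pairs of hearts without saying what pairs them or that the replicate numbers mark them, so the numbers were not taken as pairs, although each WT heart correlated best with its own number. The number of arrays per group and the shared slides limit all comparisons, and dim probes such as those of *Foxo3*, *Foxo4* and *Sod3* have signals too close to background to be compared.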
